A study of Danio rerio with 4 samples.

Results

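The genes described here are 6 of the endothelin and platelet-derived growth factor (PDGF) signalling systems in zebrafish embryos: the endothelin A receptor genes ednraa and ednrab, the endothelin ligand gene edn1, the PDGF receptor genes pdgfra and pdgfrb, and the PDGF ligand gene pdgfaa. They were taken from the deposited expression table by gene name. The name pdgfra occurs in 2 rows, so the 6 names gave 7 rows of the 31716 in the table. RNA had been sequenced from embryos 24 hours post fertilization carrying the transgene Tg(fli1a:egfp), in which fli1a regulatory sequence drives green fluorescent protein (GFP). Dissociated, fixed embryos were sorted by fluorescence into a GFP-positive fraction, labelled endothelial, and a GFP-negative fraction, labelled non-endothelial, both of the transgenic strain, and each fraction gave 2 libraries. The transgene is known to be active also in blood and in cranial neural crest of the pharyngeal arches, so the sort does not isolate 1 cell type. Per the design text, the expression data were made to be set beside accessible chromatin of the same kinds of cells.

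Endothelin-1 is a secreted peptide, cut from its precursor by endothelin-converting enzymes, that acts through G protein-coupled receptors. In zebrafish it is released by arch ectoderm, endoderm and mesoderm and received by crest-derived arch mesenchyme, where it specifies the ventral jaw skeleton. PDGFs are dimeric ligands of receptor tyrosine kinases. The alpha receptor is used by neural crest and other mesenchyme and binds PDGF-A, which often comes from neighbouring epithelium, while the beta receptor marks mural cells (pericytes and vascular smooth muscle), which PDGF-B from endothelium recruits to vessels.

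The receptor genes ednraa and ednrab and 1 of the rows named pdgfra rose in GFP-positive cells and the ligand gene pdgfaa fell. The genes edn1 and pdgfrb and the other pdgfra row had too few reads for a test. Which pdgfra row stands for the whole gene was not settled. Thus 4 of the 7 rows had a test, and all 4 were called, 3 higher and 1 lower. A gene was called where q, the p-value adjusted over the 7299 tested genes in the authors' deposited table, was under 0.05. By that rule 14.3% of the tested genes were called, 7.18% higher and 7.15% lower. Each level is the authors' group value in FPKM, fragments scaled by transcript length and library size, so levels of different genes can be set side by side. With 1 value per gene and fraction there is no standard deviation, and library depth is unknown. Separate clutches are not mentioned in the labels, so p-values refer to these libraries and may measure technical spread.

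The endothelin A receptor genes were both higher in GFP-positive cells. The level of ednraa (ENSDARG00000011876; chromosome 1, 36373657 to 36412969 in the Zv9 build) was 21.9 FPKM in GFP-positive cells, against 2.67 FPKM in GFP-negative cells. This gene encodes the receptor whose loss in zebrafish, together with its paralogue, disrupts the ventral jaw cartilages. The difference was 8.20-fold, with p = 0.002 and q = 0.0188 in the authors' deposited table. The level of ednrab (ENSDARG00000062262; chromosome 23, 46043928 to 46055406) was 45.7 FPKM in GFP-positive cells, against 12.4 FPKM in GFP-negative cells. The difference was 3.68-fold, with p = 0.0005 and q = 0.00649 in the authors' deposited table.

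Of the pair, ednrab had the higher level in both fractions and ednraa the larger ratio between them. In FPKM, ednrab stood at 2.09 times ednraa in GFP-positive cells, against 4.64 times ednraa in GFP-negative cells. Equivalently, ednraa made up 32.4% of the summed FPKM of both genes in GFP-positive cells, against 17.7% in GFP-negative cells. That difference between paralogues has no test, since the table holds no values of single libraries. The sum itself was 67.7 FPKM in GFP-positive cells, against 15.1 FPKM in GFP-negative cells. In a sorted fraction, fewer cells of a type and less RNA per cell cannot be told apart.

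The call for ednraa goes with a small test statistic. Its absolute value in the authors' deposited table was 1.102, against a median of 3.02 over the 981 called genes that were above 0 in each fraction, and 7 of these 981 had one as small or smaller. Of the 395 tested genes with an absolute statistic within 0.1 of that value, 5 were called. At a stricter q of 0.01, ednraa was not called in the authors' deposited table.

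**Figure D1:**
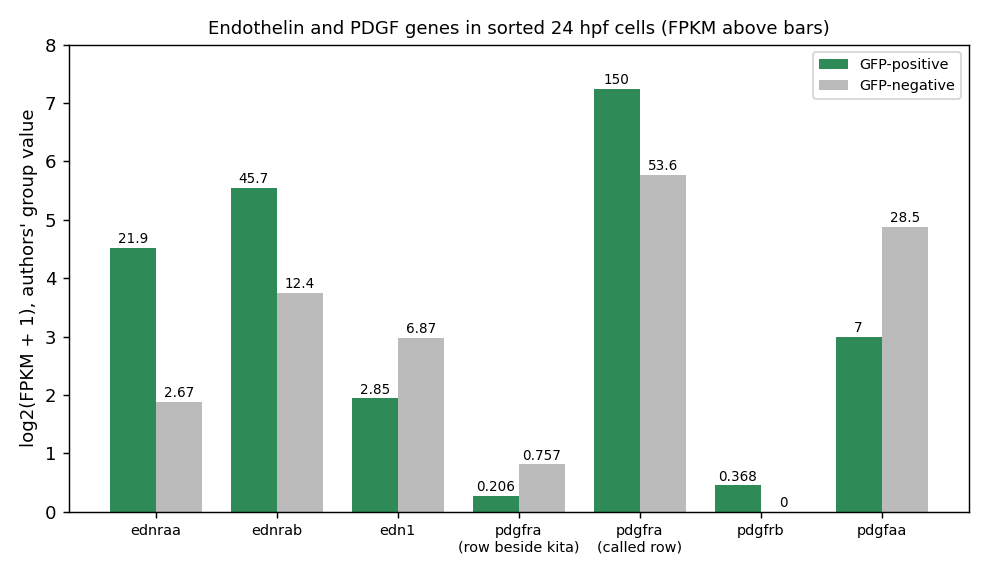
Level of each of the 7 rows as log2(FPKM + 1), with GFP-positive cells in green and GFP-negative cells in grey. Each bar is 1 authors' group value with no error, and the FPKM is printed above it; ednraa, ednrab and the called pdgfra row stand higher in GFP-positive cells, edn1 and pdgfaa stand lower, and pdgfrb and the pdgfra row beside kita are near 0.

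The ligand gene edn1 (ENSDARG00000036912; chromosome 19, 3938958 to 3943951) was low in both fractions and had no test. Its level was 2.85 FPKM in GFP-positive cells, against 6.87 FPKM in GFP-negative cells, a ratio opposite in sign to those of its receptor genes. In FPKM, the summed A receptor genes stood at 23.8 times edn1 in GFP-positive cells, against 2.20 times edn1 in GFP-negative cells. The other endothelin ligand gene edn2 had 5.56 FPKM in GFP-positive cells, against 0.981 FPKM in GFP-negative cells, again with no test. Of the rows for endothelin-3, edn3b had 0.0922 FPKM in GFP-positive cells with a listed value of 0 in GFP-negative cells. The row EDN3 (1 of 3) had 11.8 FPKM in GFP-positive cells with a listed value of 0 in GFP-negative cells, also without a test. The ligand rows thus did not share a direction, and none had enough reads for a call.

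Receptors of the B type, which pigment cell precursors use, were not higher in GFP-positive cells by their values. The row ednrb1a, a RefSeq synonym of ednrba, had 1.03 FPKM in GFP-positive cells, against 4.88 FPKM in GFP-negative cells, without a test, and ednrb1b was listed at 0 in both. The converting enzyme gene ece1 had 8.09 FPKM in GFP-positive cells, against 5.57 FPKM in GFP-negative cells, and ECE2 had 3.88 FPKM in GFP-positive cells, against 1.71 FPKM in GFP-negative cells. Neither enzyme gene had a test, so among all endothelin ligand, receptor and enzyme rows the A receptor genes were the only ones tested. The rows EDN3 (1 of 3), ednrb1a, ednrb1b and ECE2 are spelled otherwise than the listed symbols and were picked by name after the table was seen.

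Of the 7 rows, the called row named pdgfra (ENSDARG00000090703; chromosome 20, 24309905 to 24317737) had the highest level in both fractions. Its level was 150 FPKM in GFP-positive cells, rank 551 among all rows, and 53.6 FPKM in GFP-negative cells, rank 1431. It was 2.80-fold higher in GFP-positive cells, with p = 0.0004 and q = 0.00539 in the authors' deposited table. This was the smallest ratio among the 3 receptor rows called higher, at the highest level. Of the 482 genes called higher that were above 0 in each fraction, 22.0% had a smaller fold than pdgfra, 39.2% a smaller fold than ednrab and 72.8% a smaller fold than ednraa, in the authors' deposited table.

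The other row named pdgfra (ENSDARG00000070494; chromosome 20, 22448217 to 22459572) had no test and a ratio of the opposite sign, with 0.206 FPKM in GFP-positive cells, against 0.757 FPKM in GFP-negative cells. It begins 2738 bases after the end of kita, a related receptor kinase gene, and ends 1850333 bases before the called row begins in Zv9. RefSeq, on its GRCz12tu assembly, has 1 gene named pdgfra, with kita as its neighbour and 0 genes between them. The reference of gene names pairs the ID of the row beside kita with PDGFRA and holds no entry for the ID of the called row, whose name here is that of the deposited table. Which row stands for the whole gene was not settled from these files, and a division of reads between them is uncertain.

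The beta receptor gene pdgfrb (ENSDARG00000057345; chromosome 14, 3463493 to 3495433) had 0.368 FPKM in GFP-positive cells with a listed value of 0 in GFP-negative cells. It had no test, and an exact 0 can be a failed estimate, so no fold is given. Most mural markers also had too few reads for a test. Of 18 rows of the mural and smooth muscle list, 12 had none, pdgfrb itself among them. The contractile gene acta2 was listed at 0 in GFP-positive cells with 0.383 FPKM in GFP-negative cells, and tagln was listed at 0 in both. The pericyte channel subunit gene abcc9 had 0.593 FPKM in GFP-positive cells, against 0.564 FPKM in GFP-negative cells. These 3 genes were thus at or near 0 in both fractions, which does not hold for the whole list. Among other rows without a test were the regulator gene rgs5a, with 0.536 FPKM in GFP-positive cells, against 10.6 FPKM in GFP-negative cells, the T-box gene tbx18, with 4.77 FPKM in GFP-positive cells, against 4.71 FPKM in GFP-negative cells, the proteoglycan gene cspg4, with 5.22 FPKM in GFP-positive cells, against 1.51 FPKM in GFP-negative cells, and the smooth muscle myosin gene myh11a, with 2.24 FPKM in GFP-positive cells, against 0.0370 FPKM in GFP-negative cells. The receptor gene notch3, also used outside mural cells, was called lower, with 16.8 FPKM in GFP-positive cells, against 66.0 FPKM in GFP-negative cells.

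Among the PDGF ligand genes, pdgfaa fell and a PDGF-B gene rose in GFP-positive cells. The level of pdgfaa (ENSDARG00000055505; chromosome 22, 26672197 to 26687102), which encodes the A chain bound by the alpha receptor, was 7.0 FPKM in GFP-positive cells, against 28.5 FPKM in GFP-negative cells. It was 4.08-fold lower in GFP-positive cells, with p = 0.00055 and q = 0.00701 in the authors' deposited table. Its paralogue pdgfab had 11.1 FPKM in GFP-positive cells, against 10.4 FPKM in GFP-negative cells, and did not pass, with q = 0.960 in the authors' deposited table. In FPKM, pdgfaa stood at 0.634 times pdgfab in GFP-positive cells, against 2.75 times pdgfab in GFP-negative cells, so the paralogue with the higher level was not the same in both fractions. For the alpha receptor, the called pdgfra row stood at 21.4 times pdgfaa in GFP-positive cells, against 1.88 times pdgfaa in GFP-negative cells.

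The row PDGFB (1 of 3), which the reference of gene names calls pdgfbb, had 9.08 FPKM in GFP-positive cells, against 2.07 FPKM in GFP-negative cells. It was called higher, with q = 0.0237 in the authors' deposited table; it was picked by name after the table was seen. The row PDGFB (2 of 3) had 4.85 FPKM in GFP-positive cells, against 1.28 FPKM in GFP-negative cells, and the row pdgfb had 0.830 FPKM in GFP-positive cells, against 0.199 FPKM in GFP-negative cells, neither with a test. The larger value was thus the GFP-positive one in all 3 PDGF-B rows, while PDGFC had 1.16 FPKM in GFP-positive cells, against 1.71 FPKM in GFP-negative cells, without a test. The receptor-like gene pdgfrl had 3.82 FPKM in GFP-positive cells, against 13.4 FPKM in GFP-negative cells, and did not pass, with q = 0.198 in the authors' deposited table.

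**Figure D2:**
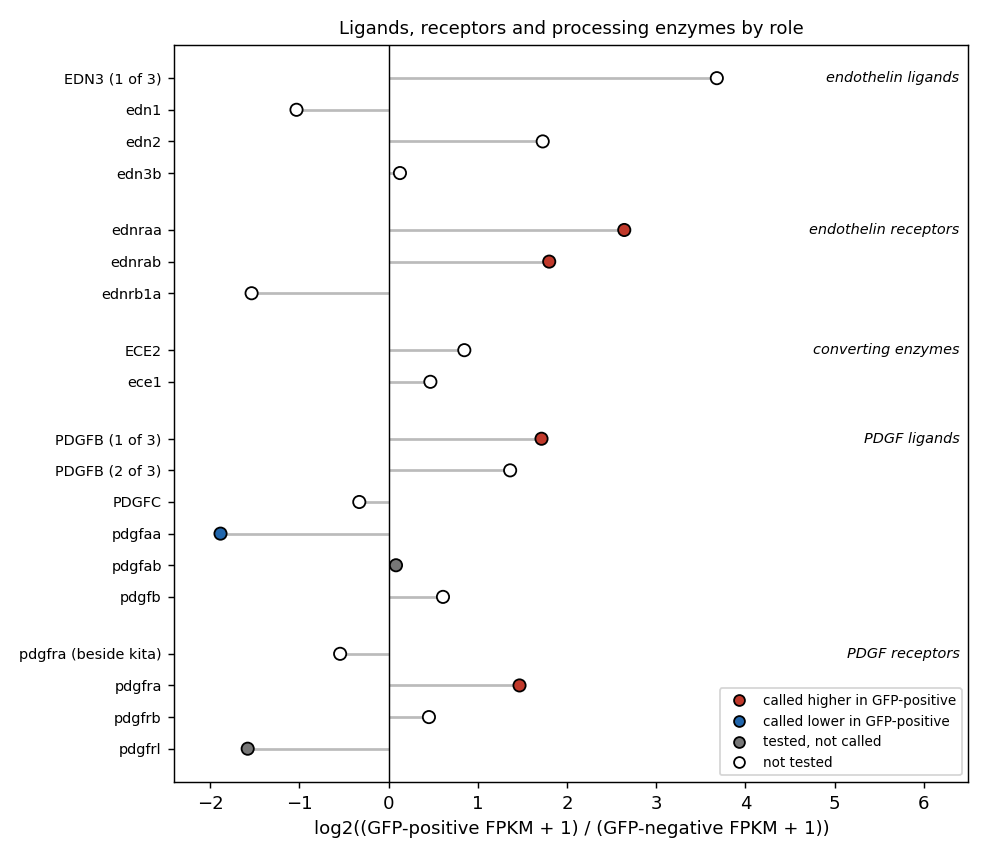
Endothelin and PDGF rows grouped by role, with log2((GFP-positive FPKM + 1) / (GFP-negative FPKM + 1)) on the x axis and colour for the call; rows listed at 0 in both fractions are left out. The A receptor rows, 1 pdgfra row and 1 PDGF-B row are called higher, pdgfaa is the only row called lower, and most of the others had no test.

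Over the pathway lists without the members, 36 genes were tested and 4 called, 11.1%, which is near the 14.3% of all tested genes. For the 16 arch genes linked to Edn1 signalling that were found by name, 10 were tested, of which 2 were called higher and 8 did not pass. The median log2((FPKM + 1) ratio) of the tested genes was 1.45, against 0.05 over all tested genes. Called higher were the homeobox gene dlx5a, with 25.9 FPKM in GFP-positive cells, against 9.22 FPKM in GFP-negative cells (q = 0.0305 in the authors' deposited table), and the transcription factor gene mef2cb, with 26.7 FPKM in GFP-positive cells, against 8.75 FPKM in GFP-negative cells (q = 0.00892 in the authors' deposited table). No gene of this list was called lower, also at an unadjusted p under 0.05 (0 genes), while 6 were higher at that unadjusted threshold, which 12.1% of all tested genes passed higher and 11.8% lower in the authors' deposited table.

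Of those 6, 4 did not pass after adjustment. The ventral arch gene dlx4b had 21.0 FPKM in GFP-positive cells, against 2.19 FPKM in GFP-negative cells, with q = 0.0540 in the authors' deposited table. The joint and cartilage gene barx1 had 15.3 FPKM in GFP-positive cells, against 1.28 FPKM in GFP-negative cells, with q = 0.0653 in the authors' deposited table. The homeobox genes dlx6a and dlx4a had q = 0.103 and q = 0.167 in the authors' deposited table. The paralogue mef2ca, a transcription factor that zebrafish arch crest needs to respond to Edn1, had 14.4 FPKM in GFP-positive cells, against 16.4 FPKM in GFP-negative cells, with q = 0.869 in the authors' deposited table. The ventral arch gene hand2 had 5.57 FPKM in GFP-positive cells, against 3.15 FPKM in GFP-negative cells, and no test. Tested but not passing as well were dlx3b, furina and msxe, with 33.3, 9.84 and 9.25 FPKM in GFP-positive cells against 18.0, 5.88 and 15.5 FPKM in GFP-negative cells. Without a test, nkx3.2, emx2, furinb and gsc stayed under 10 FPKM in both fractions.

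For proximal signalling below PDGF receptors, 18 of 23 genes were tested, with 2 called higher, 0 called lower, 16 not passing and a median log2((FPKM + 1) ratio) of 0.13. At an unadjusted p under 0.05, 6 were higher and 1 was lower, beside 12.1% and 11.8% of all tested genes. The phosphatase gene ptpn11b had 9.69 FPKM in GFP-positive cells, against 1.27 FPKM in GFP-negative cells (q = 0.00488 in the authors' deposited table), whereas its paralogue ptpn11a had 21.6 FPKM in GFP-positive cells, against 20.2 FPKM in GFP-negative cells (q = 0.936 in the authors' deposited table). The adaptor gene shc1 had 24.9 FPKM in GFP-positive cells, against 11.04 FPKM in GFP-negative cells (q = 0.0374 in the authors' deposited table). The adaptor gene nck1a had 13.2 FPKM in GFP-positive cells, against 1.09 FPKM in GFP-negative cells, but did not pass (q = 0.121 in the authors' deposited table). The phospholipase C gene plcg1 had 31.7 FPKM in GFP-positive cells, against 13.4 FPKM in GFP-negative cells. It did not pass either, with q = 0.126 in the authors' deposited table. The regulatory subunit genes pik3r1 and pik3r2 of phosphoinositide 3-kinase had 20.9 and 13.8 FPKM in GFP-positive cells against 23.7 and 17.1 FPKM in GFP-negative cells.

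In the list for Gq and phospholipase C signalling, through which endothelin receptors act, 6 of 15 rows were tested and 0 were called. Tested were gna11a and gna11b, the related gna12a, gna13a and gna13b, and the regulator gene rgs5b. No phospholipase C gene of this list had a test. In the authors' deposited Cuffdiff table, 2 rows (gna12a and rgs5b) were higher and 0 lower at an unadjusted p under 0.05. Of all tested genes, 12.1% were higher and 11.8% lower at that threshold. The alpha subunit genes gna11a and gna11b had 11.2 and 12.5 FPKM in GFP-positive cells against 10.3 and 13.1 FPKM in GFP-negative cells, with q = 0.930 and q = 0.960 in the authors' deposited table. The related gna12a had 12.4 FPKM in GFP-positive cells, against 5.31 FPKM in GFP-negative cells, with q = 0.0772 in the authors' deposited table. The G protein regulator genes rgs5a and rgs5b, known from pericytes, had ratios of opposite sign, with no call for either. The value of rgs5b was 10.7 FPKM in GFP-positive cells, against 1.77 FPKM in GFP-negative cells (q = 0.179 in the authors' deposited table), and that of rgs5a was 0.536 FPKM in GFP-positive cells, against 10.6 FPKM in GFP-negative cells, without a test. The class III receptor kinase genes related to the PDGF receptors (kita, kitb, csf1ra, csf1rb and flt3) had no test, and none exceeded 2.39 FPKM in either fraction.

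Endothelial and erythroid markers were higher in GFP-positive cells, while the arch mesenchyme and mural lists were mixed. The fraction labels matched endothelial markers, with fli1a at 187 FPKM in GFP-positive cells, against 4.71 FPKM in GFP-negative cells; as the transgene uses its regulatory sequence, that difference describes the sort. Of the 15 tested pan-endothelial rows, 9 were called higher and 0 lower (0 also at an unadjusted p under 0.05), and the summed FPKM of the list was 1144 in GFP-positive cells, against 28.7 in GFP-negative cells. All 12 rows of the erythroid list found by the table's own names were called higher as well. Their summed FPKM was 90364 in GFP-positive cells, against 1137 in GFP-negative cells. The listed klf1, matched to the row klfd only through the reference of gene names, did not pass (q = 0.562 in the authors' deposited table). It had 27.2 FPKM in GFP-positive cells, against 0.247 FPKM in GFP-negative cells. Myeloid markers had larger values in GFP-positive cells in all 6 tested rows, of which 2 were called higher and 4 did not pass. The summed FPKM of the myeloid list was 410 in GFP-positive cells, against 2.77 in GFP-negative cells. The 16 rows of the arch mesenchyme and cranial crest list summed to 566 FPKM in GFP-positive cells, against 282 FPKM in GFP-negative cells; 5 of the 10 tested were called higher, 1 was called lower and 4 did not pass. The mural and smooth muscle list summed to 115 FPKM in GFP-positive cells, against 176 FPKM in GFP-negative cells. Of its tested genes as spelled in the table, 2 were called higher (foxc1a and foxc1b), 2 lower (desma and notch3) and 2 did not pass. The listed cald1a, matched to the row cald1l only through the reference of gene names, was also called higher. It had 25.2 FPKM in GFP-positive cells, against 5.45 FPKM in GFP-negative cells (q = 0.000958 in the authors' deposited table). Much of the GFP-negative sum came from desma and notch3, at 71.0 and 66.0 FPKM, against 11.1 and 16.8 FPKM in GFP-positive cells. The gene desma is also on the skeletal muscle list. Over all rows of the mural list, 11 were larger and 5 smaller in GFP-positive cells.

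The ratios of the receptor genes can be set beside those of these lists. On the log2((FPKM + 1) ratio) scale, ednraa, ednrab and the called pdgfra row stood at 2.64, 1.80 and 1.47. Of the arch mesenchyme genes called higher, alx1, alx4a, prrx1b, dlx2a and twist1a stood at 3.17, 3.08, 2.59, 1.92 and 1.34, and of those tested but not called barx1, prrx1a, tfap2a and nr2f5 stood at 2.83, 1.07, 0.84 and -0.49. Some mural list genes fell in the same range, with foxc1a and foxc1b, called higher, at 1.70 and 1.56. The row cald1l, matched through the reference of gene names and called higher, stood at 2.02. Tested but not called, rgs5b and foxf2a stood at 2.08 and 1.22. The mural list genes desma and notch3, called lower, stood at -2.57 and -1.92. With a tested median of 1.39 for that list, the ratios do not set the receptor genes with 1 list. The tested pan-endothelial rows ran from 3.28 for sox7 to 5.82 for cdh5, above all 3 receptor rows, except that the row ETS1, matched to the listed ets1 only through the reference of gene names, stood at 2.09. The tested median was 4.60 for the pan-endothelial list as spelled in the table and 1.63 for arch mesenchyme. The crest gene sox10 was called lower, at -2.10, beside -1.88 for pdgfaa. Lists of other tissues had calls in the same direction as pdgfaa, with 5 of 6 tested epidermal genes called lower (median -2.71), 7 of 10 neural genes (median -4.72), 7 of 9 skeletal muscle genes (median -2.82) and 2 of 4 notochord and floor plate genes (median -2.91). The sclerotome and fibroblast list, by the table's own names, had 0 of 6 tested genes called (median -0.59). Of these 6, 2 were larger and 4 smaller in GFP-positive cells. The listed tcf15, matched to the row par1 only through the reference of gene names, was called lower, at -1.88. It had 10.6 FPKM in GFP-positive cells, against 41.7 FPKM in GFP-negative cells (q = 0.00985 in the authors' deposited table). The part of any of these tissues in the value of pdgfaa was not tested. Levels can be compared as well. In GFP-positive cells, the called pdgfra row at 150 FPKM stood beside 172 FPKM for twist1a and 52.4 FPKM for kdrl, an endothelial receptor gene. Arch mesenchyme genes called higher ran there from 21.5 FPKM for alx1 to 172 FPKM for twist1a. Pan-endothelial genes called higher ran from 18.9 FPKM for tek to 232 FPKM for etv2, so this level does not set pdgfra with 1 list. In GFP-negative cells the levels were 53.6 FPKM for the called pdgfra row, 67.2 FPKM for twist1a and 2.13 FPKM for kdrl. What share of the receptor differences goes with each of these cell types was not tested.

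**Figure D3:**
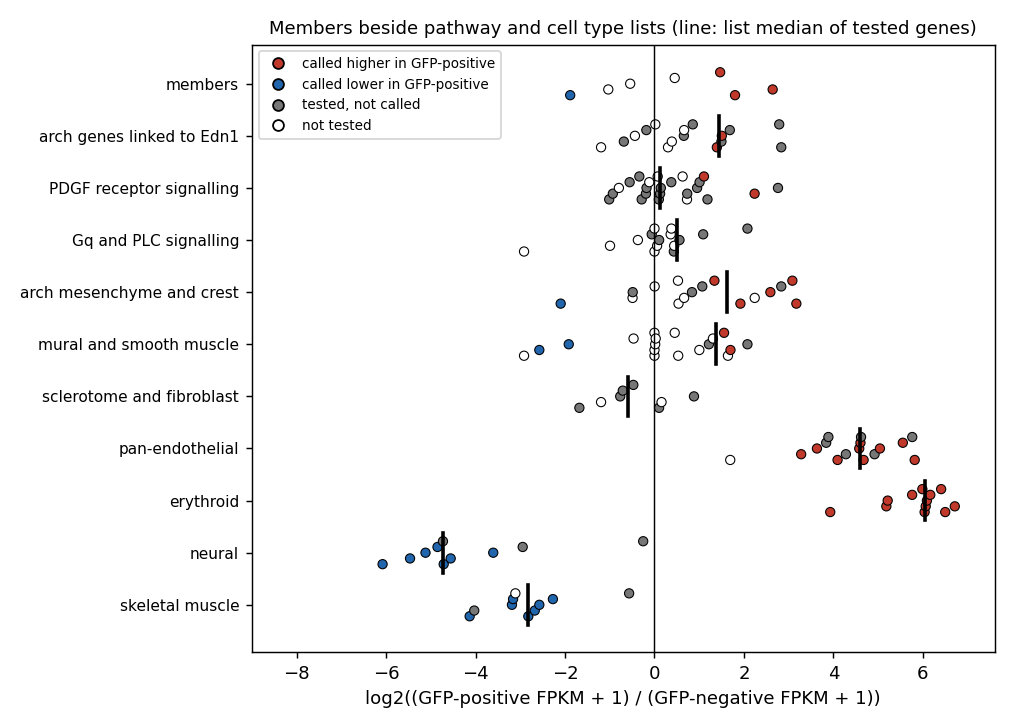
The log2((GFP-positive FPKM + 1) / (GFP-negative FPKM + 1)) of each row, by list, coloured by call, with a line at the median of the tested rows of each list other than the 6 genes described here. The receptor rows called higher (1.47 to 2.64) overlap the arch mesenchyme genes called higher (1.34 to 3.17) and some mural genes. All 1046 called genes had a log2 ratio of at least 1 in size in the authors' deposited table. Rows called higher thus share a lower bound, and this overlap does not set the receptor rows with 1 list. All tested arch mesenchyme genes, called or not, range from -2.10 for sox10 to 3.17 for alx1. The receptor rows lie left of every tested pan-endothelial row found by the table's own names (3.28 to 5.82).

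**Figure D4:**
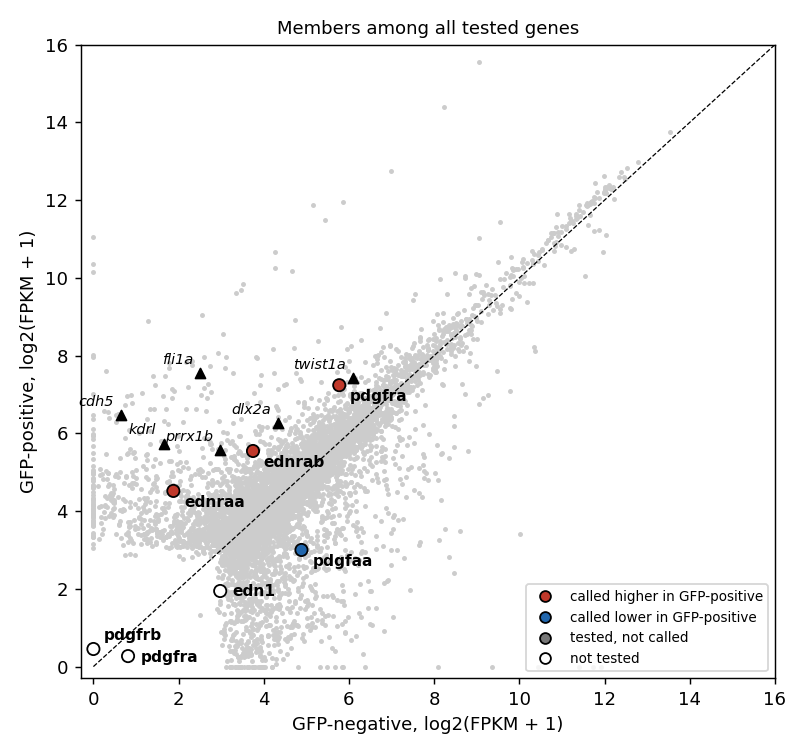
All 7299 tested genes in grey by log2(FPKM + 1), GFP-negative on the x axis and GFP-positive on the y axis. The 7 rows described here are circles coloured by call, white where not tested, and 6 marker genes are triangles. The dashed line marks equal values. The called pdgfra row lies close to twist1a, but the arch genes dlx2a and prrx1b have lower values than it in both fractions. The endothelial genes fli1a, cdh5 and kdrl lie further above the line than any of the receptor rows.

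The genes with the pair of levels most like each tested member were found by the distance between log2(FPKM + 1) values over the 2 fractions, which is too few values to speak of a shared pattern. Only other tested genes with a named symbol were searched. Names of clone style and names with a colon or a parenthesis were left out, so unnamed rows can lie nearer. Nearest to ednraa were RIN3, with 22.3 FPKM in GFP-positive cells, against 2.70 FPKM in GFP-negative cells, and the annexin gene anxa3b. Nearest to ednrab were the leukotriene hydrolase gene lta4h and the T-box gene tbx2b, the second with 47.9 FPKM in GFP-positive cells, against 12.4 FPKM in GFP-negative cells. Nearest to the called pdgfra row were npc2, which encodes a lysosomal cholesterol carrier, and the scaffold gene akap12b. Nearest to pdgfaa were the homeobox gene hoxd12a, with 6.61 FPKM in GFP-positive cells, against 27.2 FPKM in GFP-negative cells, and the adhesion gene bcam. All of these distances were between 0.0263 and 0.119.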

How the data were processed

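RNA-seq was measured in 2 GFP-positive and 2 GFP-negative libraries of 24 hours post fertilization embryos; per the labels' protocols, RNA of fixed, sorted cells was isolated by MARIS and made into libraries with Total Script. TopHat2 2.0.9, Cuffdiff 2.1.1 and the Zv9 build are listed in the submitters' processing notes; settings are not given in the sources used here. Per the file headers, the authors' Cuffdiff table gives 1 FPKM value per gene and fraction, a log2 ratio, a test statistic (a score), a p-value and a q-value; FPKM values divide reads by transcript length and library size. The authors' log2 ratio has GFP-negative cells on top, so its sign was turned. Of 31716 rows, 7299 had a test, 24304 had too few alignments and 113 were LOWDATA. Deposited q matched a Benjamini-Hochberg adjustment of deposited p over tested genes within 5.26e-07. No test of single libraries was possible, the depth is unknown, and no standard error was derived because p did not follow the test statistic closely.

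The members, lists and named-gene rule (all members, pathway genes, leading called markers, nearest genes) were chosen with earlier results of these data known. Of 194 list symbols, 169 were found as spelled; 16 others were matched through gene name references. Log2((FPKM + 1) ratio) uses a pseudocount of 1 FPKM, which understates changes of low genes. Tables were read with pandas 2.3.3, and the code was tested on simulated data. RefSeq sequences were not used here. The alternatives were a stricter q of 0.01, minimum FPKM values, a minimum log2 ratio, a new adjustment, single-gene loci, unique names, other pseudocounts and other scalings. Of the listed genes, 2 are not reported here by name.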

Additional observations from a re-analysis of the deposited data

How the results depend on the processing

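The 4 called members kept their direction under pseudocounts of 0.1 and 0.01 FPKM, centring on the median and scaling to the same sum without globins, which moved the median of tested genes by -0.09. They stayed called with a log2 ratio of at least 1, with minimum values of 1 and 5 FPKM, with a new adjustment and with genes alone in their locus. At a q of 0.01, 3 of the 4 were called (not ednraa), and 630 genes in all, against 1046. With names that occur once, pdgfra drops out by construction and 3 were called. Pathway genes other than the members gave 4 calls, and 2 (mef2cb and ptpn11b) at a q of 0.01; the arch mesenchyme list then had 3 calls higher and 0 lower, against 5 and 1. Matching names also through references, which was chosen after seeing the data, raised the calls over all lists to 65, against 61. No paired analysis was possible because the table holds 1 value per gene and fraction, and for the same reason no replicate could be left out.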
